A study of Mus musculus with 7 samples.

Results

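The genes of cholesterol and fatty acid synthesis, with the regulators that switch both pathways on, were described in whole colon tumors of mice. The 30 members were the rows of the deposited count table whose Ensembl identifiers carry the symbols of 17 enzymes of cholesterol synthesis, 8 genes of fatty acid synthesis and 5 regulators of both, out of 43346 genes in the table. All 30 were present in all 7 tumor columns, and all 30 passed the filter on low counts that left 15810 genes to test. The members were listed by pathway, not by their values.

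Tumors came from mice whose blood system had been replaced. Donor marrow was Dnmt3a+/Δ, with 1 working copy of the DNA methyltransferase gene Dnmt3a (4 tumors), or Dnmt3a+/+ (3 tumors), and all recipients were wild-type. The labels call the recipients C57BL6/J and put 8 wk beside them, whereas the study's methods give a congenic CD45.1 strain at 6 wk of age and C57BL6/J as the background of the donors. The donors of both groups carried Mx1-Cre, an interferon-driven recombinase, and had received poly(I:C), so the deletion lies in blood cells of the graft and not in the epithelium, vessels or stroma of the tumor, which are the recipient's. Every recipient was given azoxymethane (AOM, 10 mg/kg), a carcinogen, and then 3 rounds of 3% dextran sulfate sodium (DSS), which injures the colon lining. The names of the tumors place them in transplantation experiments BMT18 (Dnmt3a+/+ replicates 1 and 2, Dnmt3a+/Δ replicates 1 and 2) and BMT8 (Dnmt3a+/+ replicate 3, Dnmt3a+/Δ replicates 3 and 4). The comparison asked how tumors under a Dnmt3a+/Δ blood system differed in their RNA from tumors under a Dnmt3a+/+ one.

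Cholesterol and fatty acids are both built from acetyl-CoA in the cytosol. Cholesterol synthesis runs through mevalonate to squalene, which is closed into a ring and trimmed to cholesterol, and fatty acid synthesis makes palmitate, which is then lengthened and desaturated. Both pathways are transcribed under the sterol regulatory element-binding proteins (SREBPs), of which SREBP2 mainly serves the sterol genes and SREBP1 the fatty acid genes. SREBPs are held in the endoplasmic reticulum by the Insig proteins when sterols are plentiful and are escorted to the Golgi by Scap when they are not. Dividing cells of the colon epithelium, and tumors that arise from it, use both products for new membranes.

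Total counts were 38472738 to 64314999 per tumor, and levels are given in CPM, the counts per 1e6 counts of a library whose size was scaled with TMM factors. Dnmt3a itself was at 20.3 to 24.3 CPM in the Dnmt3a+/+ tumors and at 22.0 to 43.0 CPM in the Dnmt3a+/Δ tumors, which does not check the labels because the deletion is confined to the graft. The colon epithelium markers Epcam and Krt8 were at 1543 CPM or more in all 7 tumors, but markers of stratified squamous epithelium, a tissue of the anal margin and not of the colon, were abundant in 6 of them. The summed CPM of 10 markers of squamous epithelium and its sebaceous glands was 17360, 3379 and 3718 in the Dnmt3a+/+ tumors (replicates 1 to 3) and 19120, 230.1, 3584 and 3736 in the Dnmt3a+/Δ tumors (replicates 1 to 4). Dnmt3a+/Δ replicate 2 thus stood apart, with basal keratin Krt5 at 0.0815 CPM against 927 CPM or more elsewhere. It also had the highest sums of 8 fibroblast markers (1031 CPM, against 157 to 363 CPM in the other tumors), of 8 macrophage markers (206 CPM, against 48.7 to 104 CPM) and of 7 endothelial markers (140.4 CPM, against 14.6 to 62.9 CPM). Dnmt3a+/+ replicate 3, the only Dnmt3a+/+ tumor of BMT8, stood apart in another way. Its sum of 6 smooth muscle markers was 22.6 CPM, against 243 to 1167 CPM in the other tumors. Sebaceous glands make lipid in quantity, as do adipocytes. Of 10 adipocyte markers, Adipoq, Plin1, Lep, Retn and Cfd were at 0 in at least 1 tumor, with Adipoq at 0.225 CPM at most. The sum of the list was 41.5 to 72.9 CPM with Dnmt3a+/+ and 38.2 to 48.7 CPM with Dnmt3a+/Δ grafts. Most of that sum was 1 gene, Pparg, at 27.65 to 64.1 CPM and 19.3 to 34.45 CPM. Fabp4 was higher in every Dnmt3a+/Δ tumor (3.17 to 9.31 CPM, against 1.16 to 2.42 CPM). Cidec was lower in every one (1.22 to 2.15 CPM, against 2.39 to 3.85 CPM). Because Dnmt3a+/Δ replicate 2 stood apart in several lists, values without it are given beside the main results.

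**Figure D1:**
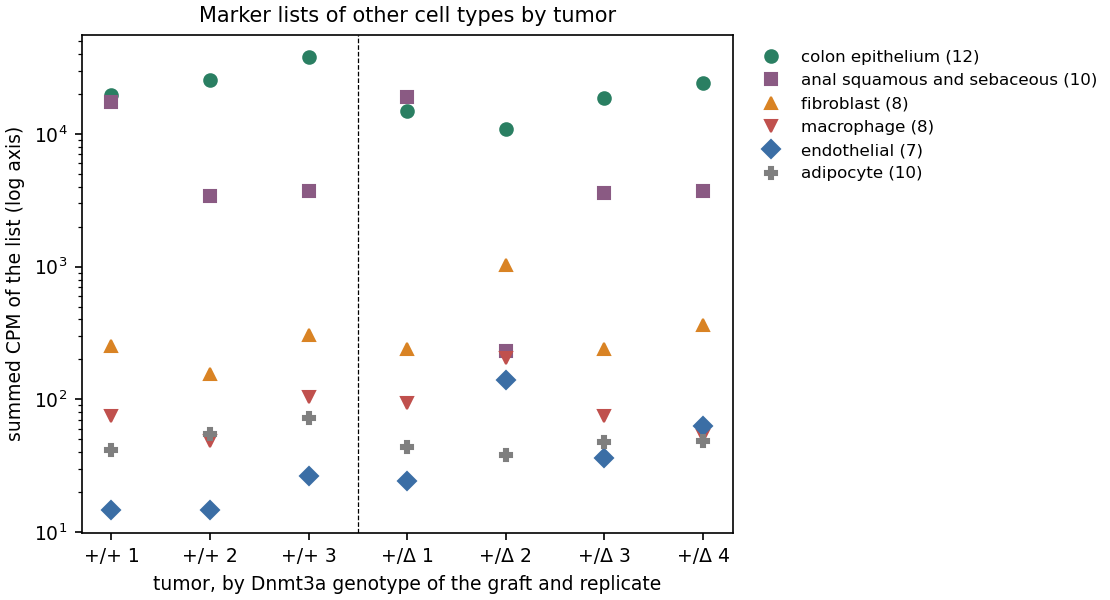
Summed CPM (log axis) of 6 marker lists in each of the 7 tumors, ordered by the Dnmt3a genotype of the graft and the replicate, with the number of genes of each list in the legend. The squamous and sebaceous sum is 230.1 CPM in Dnmt3a+/Δ replicate 2 and at least 3379 CPM in the others, while the fibroblast, macrophage and endothelial sums are highest in that tumor.

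In edgeR's quasi-likelihood test, where a call took a Benjamini-Hochberg adjusted p under 0.05 with a log2 fold change beyond 1 in either direction, none of the 30 members was called between grafts. None of the 15810 genes tested was called either (0.0%), although 1744 had an unadjusted p under 0.05. DESeq2 called 300 genes, 243 of them higher with Dnmt3a+/Δ grafts (1.51% of 16056 tested), and 1 of the 300 was a member, Thrsp. At an unadjusted p under 0.05 in edgeR, 3 members were higher (Fasn, Elovl6 and Thrsp, against 5.83% of all genes tested) and 2 were lower (Msmo1 and Sc5d, against 5.2% of all genes tested). Thrsp passed the filter on low counts through Dnmt3a+/Δ tumors only, 3 of them, and no Dnmt3a+/+ tumor reached the filter's limit, so its p lends nothing to the count. Of the other 29 members, 2 were higher (6.9%) and 2 lower (6.9%), shares close to those of all genes. With experiment in the fit, 6 members had such a p, Scd1 (higher) being the one added. Without Dnmt3a+/Δ replicate 2 there were 2, Elovl6 and Sc5d. In the fit of all 7 tumors, the 2 higher members other than Thrsp belong to fatty acid synthesis. The 2 lower ones belong to the late steps of cholesterol synthesis, and both counts are near the shares of all genes. Every Dnmt3a+/Δ tumor was below every Dnmt3a+/+ tumor for 4 members, Sqle, Msmo1, Sc5d and Dhcr7, against 6.32% of all genes, and above for 1 member, Elovl6, against 6.12%. As a share of the list that is 13.3% of the members below and 3.33% above, and 36.4% of the 11 enzymes from squalene to cholesterol below.

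**Figure D2:**
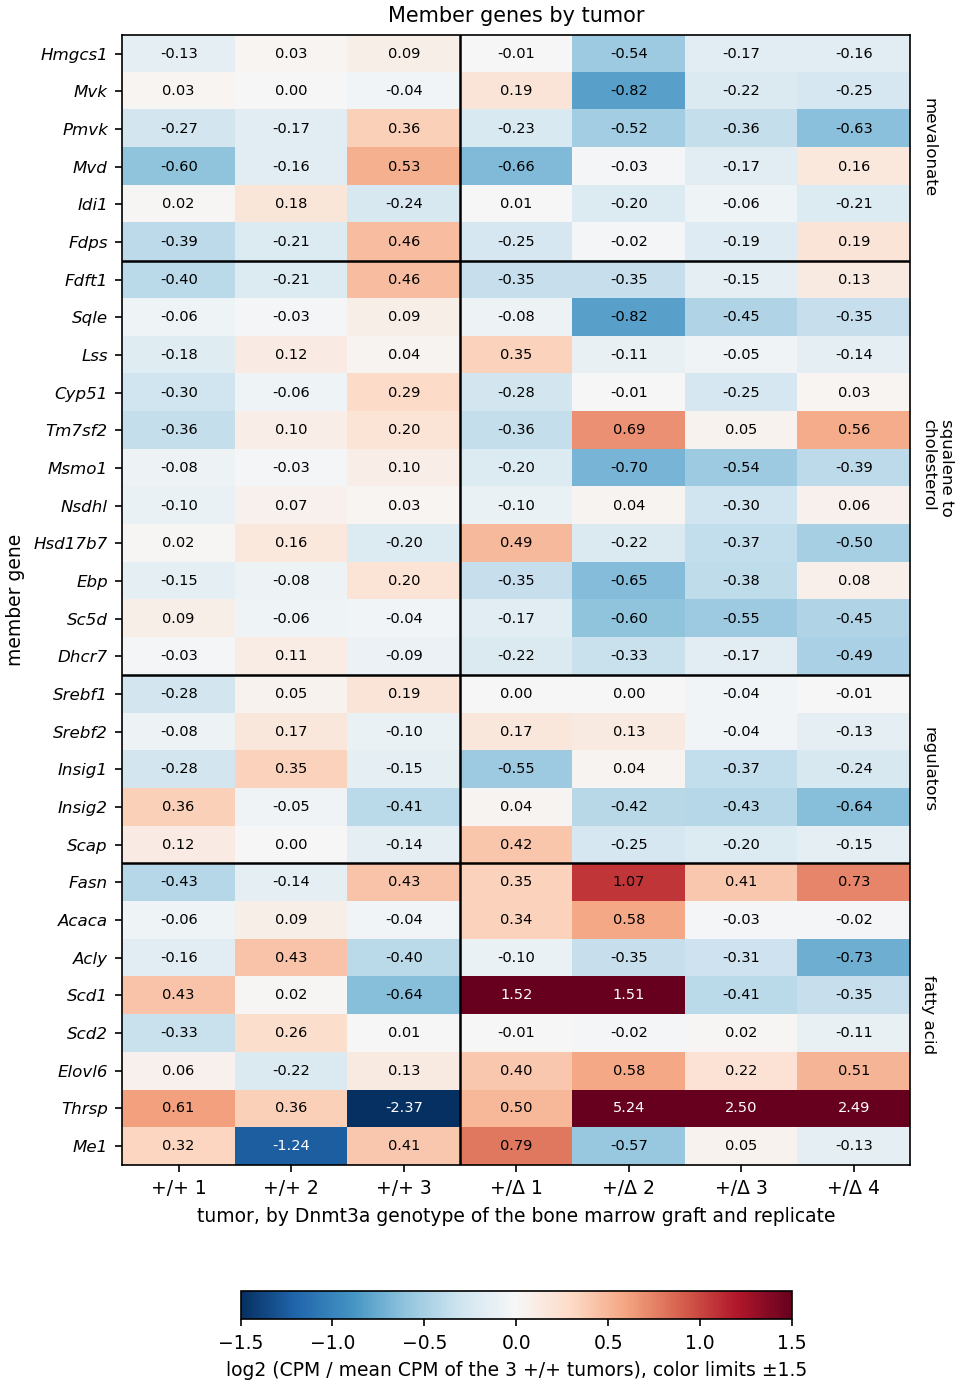
Level of each of the 30 members in each tumor as log2 of its CPM over its mean CPM in the 3 Dnmt3a+/+ tumors, in colors limited to 1.5 in either direction with the value printed in each cell. The late sterol enzymes Sqle, Msmo1, Sc5d and Dhcr7 are below 0 in all 4 Dnmt3a+/Δ tumors, Fasn and Elovl6 are above 0 in all 4, and Thrsp reaches 5.24 in Dnmt3a+/Δ replicate 2.

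The enzymes of the mevalonate stage turn acetyl-CoA units into the isoprenoid farnesyl diphosphate. All 6 had log2 fold changes below 0 (median -0.18, range -0.43 to -0.06), where the median of all genes tested was 0.0025, and none had an unadjusted p under 0.05. Scaling by library size alone shifted the median of all genes to 0.21, and on that scale 3 of the 6 were below 0 and their median was 0.04, so the direction of this group holds relative to the other genes and not on that scale itself. Without Dnmt3a+/Δ replicate 2 all 6 stayed below 0 with a median of -0.071, and in BMT18 alone 4 of 6 were below 0. Hmgcs1, which condenses acetyl-CoA units into HMG-CoA, had 332, 372 and 386 CPM in the Dnmt3a+/+ and 361, 250.3, 324 and 326 CPM in the Dnmt3a+/Δ tumors (in replicate order throughout). In edgeR's quasi-likelihood test its log2 fold change was -0.21 ± 0.17 (SE, adjusted p = 0.686). Dnmt3a+/Δ replicate 2 was the lowest tumor for this gene and the groups overlapped, and without that tumor the log2 fold change was -0.084. Idi1, which isomerizes isopentenyl diphosphate, had 250.1, 280.0 and 209 CPM in the Dnmt3a+/+ tumors and 248, 214, 236 and 213 CPM in the Dnmt3a+/Δ tumors. Idi1 had a log2 fold change of -0.11 ± 0.16 (SE, adjusted p = 0.831, edgeR). Its highest and lowest tumors both carried Dnmt3a+/+ grafts, and without Dnmt3a+/+ replicate 2 the log2 fold change was -0.016. Per kilobase of exon, Hmgcs1 (73.1 CPM per kb, mean of 7 tumors) and Idi1 (67.3 CPM per kb) were the most abundant sterol enzymes, and Mvk, which phosphorylates mevalonate, was at 19.2 CPM per kb. Pmvk, which adds the next phosphate, had the lowest log2 fold change of the stage (-0.43 ± 0.19 SE), with 61.5, 65.6 and 94.9 CPM in the Dnmt3a+/+ and 63.0, 51.4, 57.8 and 48.0 CPM in the Dnmt3a+/Δ tumors, and here 1 tumor, Dnmt3a+/+ replicate 3, stood above all others. The same tumor was highest for Mvd and Fdps, which decarboxylate and join the isoprenoid units, at 127 CPM and 358 CPM.

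The squalene to cholesterol enzymes close the ring and remove its extra methyl groups and double bonds. Of 11 members, 9 had log2 fold changes below 0 (median -0.17, range -0.45 to 0.29), and 5 of 11 did with scaling by library size only. In BMT18 alone 6 of 11 were below 0, with a median of -0.035, and without Dnmt3a+/Δ replicate 2 there were 9, with a median of -0.13. Sqle, squalene epoxidase, the first oxygen-dependent step (GRCm38 chr15:59315077-59331192, plus strand), had 199, 203 and 219.7 CPM in the Dnmt3a+/+ tumors and 196, 117, 152 and 162 CPM in the Dnmt3a+/Δ tumors. By edgeR, Sqle differed by -0.40 ± 0.19 (SE) on the log2 scale (adjusted p = 0.483). Its groups did not overlap, but Dnmt3a+/Δ replicate 1 was nearly level with the lowest Dnmt3a+/+ tumor. Without Dnmt3a+/Δ replicate 2, its lowest tumor, the log2 fold change of Sqle was -0.26.

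Msmo1 (chr8:64718139-64733792, minus strand) oxidizes the methyl groups at carbon 4 of the sterol ring. It had 199, 207 and 226 CPM in the Dnmt3a+/+ tumors and 184, 129.8, 145 and 160.4 CPM in the Dnmt3a+/Δ tumors. This was a log2 fold change of -0.45 ± 0.16 (SE, unadjusted p = 0.0248, adjusted p = 0.407, edgeR). All 4 Dnmt3a+/Δ tumors were below the 3 others, with Dnmt3a+/Δ replicate 1 nearest to them. Within experiments the difference of mean log2 CPM was -0.39 in BMT18 (2 tumors against 2) and -0.57 in BMT8 (2 against 1, where no test was run), and the fit without Dnmt3a+/Δ replicate 2 gave -0.35 (unadjusted p = 0.0569).

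Sc5d, the sterol C5-desaturase near the end of the pathway (chr9:42251595-42264256, minus strand), had 122, 110.3 and 112 CPM in the Dnmt3a+/+ tumors and 102, 75.8, 78.2 and 83.9 CPM in the Dnmt3a+/Δ tumors. The log2 fold change of Sc5d was -0.43 ± 0.15 (SE, unadjusted p = 0.0204, adjusted p = 0.406 in edgeR's quasi-likelihood test). The 3 Dnmt3a+/Δ tumors of replicates 2 to 4 lay close together, well below the other 4 tumors of the series. Its difference of mean log2 CPM was -0.40 in BMT18 and -0.46 in BMT8. Leaving out Dnmt3a+/Δ replicate 2 gave a log2 fold change of -0.36 (unadjusted p = 0.0483).

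Dhcr7, the reductase that makes cholesterol from 7-dehydrocholesterol (chr7:143823145-143848410, plus strand), had 102, 113 and 98.2 CPM in the Dnmt3a+/+ tumors and 89.9, 83.1, 92.6 and 74.2 CPM in the Dnmt3a+/Δ tumors. In edgeR's quasi-likelihood test its log2 fold change was -0.30 ± 0.14 (SE, adjusted p = 0.476). The groups were apart, and the tumors of each spanned a narrow range. Differences within experiments were -0.31 in BMT18 and -0.25 in BMT8. With scaling by library size only, the log2 fold changes of Sqle, Msmo1, Sc5d and Dhcr7 were -0.20, -0.24, -0.23 and -0.09. Their unadjusted p in edgeR on that scale were 0.239, 0.123, 0.169 and 0.654. These 4 genes also stayed below 0 without each of the 7 tumors in turn, which groups without overlap nearly ensure.

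Other enzymes of the stage showed no such separation. Cyp51, the lanosterol demethylase, had 234, 276 and 352 CPM in the Dnmt3a+/+ tumors and 236, 284, 241 and 294 CPM in the Dnmt3a+/Δ tumors. Cyp51 had a log2 fold change of -0.12 ± 0.19 (SE, adjusted p = 0.855, edgeR). Its highest tumor was Dnmt3a+/+ replicate 3 and its groups overlapped. The remaining 6 were Fdft1, Lss, Tm7sf2, Nsdhl, Hsd17b7 and Ebp, with log2 fold changes from -0.30 (Ebp) to 0.29 (Tm7sf2), and adjusted p of 0.598 or more in edgeR's quasi-likelihood test. Lss, the cyclase that forms lanosterol, was the least abundant of the 17 listed sterol enzymes per kilobase of exon (4.50 CPM per kb, mean of 7 tumors). Tm7sf2, a sterol reductase, was the one member of the sterol list above 0 by more than its SE (log2 fold change 0.29 ± 0.28, and 0.16 without Dnmt3a+/Δ replicate 2), with 56.6 CPM in Dnmt3a+/Δ replicate 2 and 27.5 to 51.9 CPM elsewhere.

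**Figure D3:**
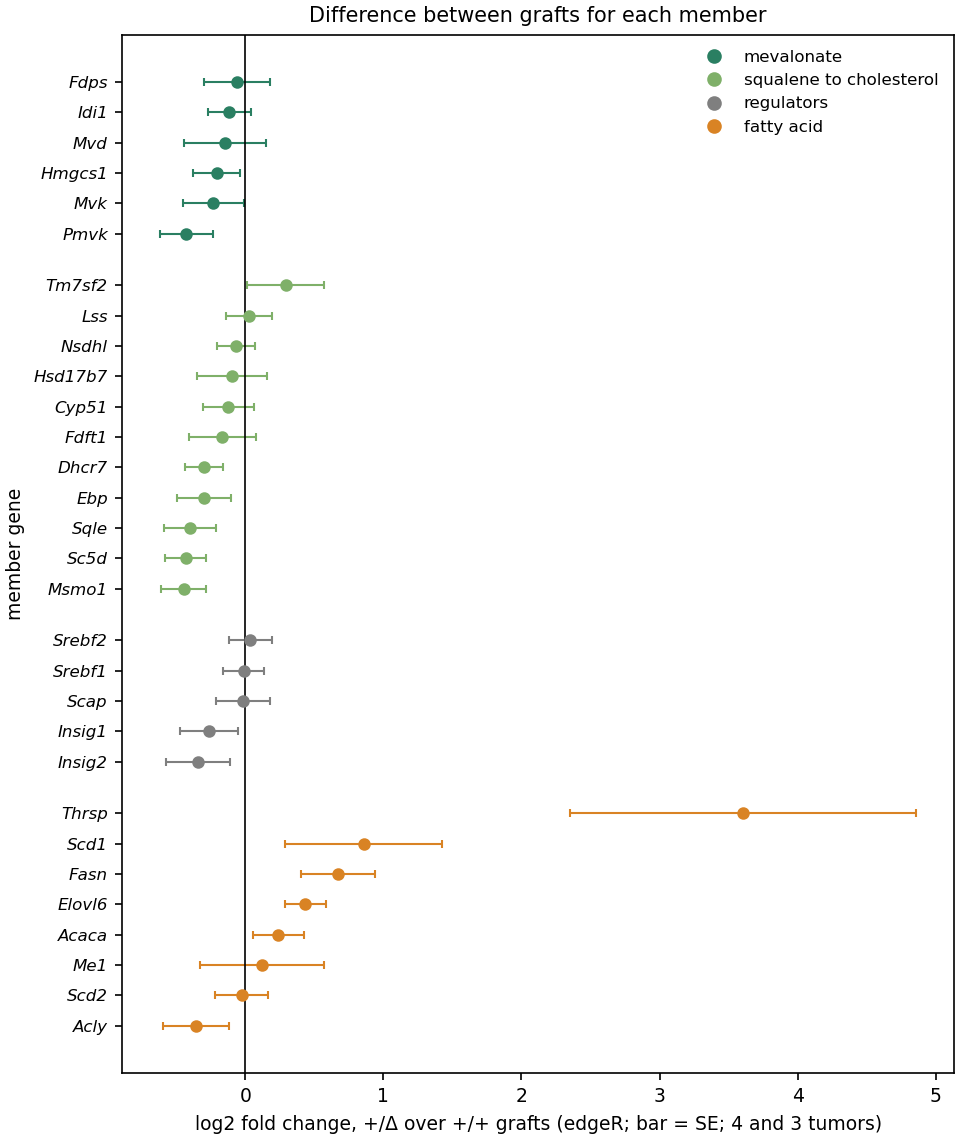
Log2 fold change of each member, Dnmt3a+/Δ over Dnmt3a+/+ grafts, with its standard error as a bar (edgeR, TMM scaling, 4 and 3 tumors), grouped by pathway stage. Sterol enzymes lie mostly just left of 0 and fatty acid genes mostly right of it, Thrsp farthest at 3.60 with a wide error; with scaling by library size only, 9 of the 17 sterol enzymes lie right of 0.

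Because the sterol enzymes are known as a jointly controlled set, their promoters were searched for the sites of SREBP and of its partner NF-Y, a factor that binds CCAAT boxes. Windows of 250 bases before to 50 bases after the start, from RefSeq on GRCm38.p6, were given for 25 of the 30 members and for 27025 genes in all, and none was given for Fdps, Fdft1, Sqle, Scd1 and Scd2. Motifs were searched on both strands. CCAAT was found in at least 1 window of all 14 sterol enzymes with a window, of 4 of 5 regulators and of 4 of 6 fatty acid genes, and in 41.1% of all genes (42.3% of the 11692 tested genes with a window). The sterol regulatory element TCACNCCAC was found in 1 member, Hmgcs1, and in 1.44% of all genes. The shorter form CACCCCAC was found in the same place in Hmgcs1, inside the longer match, and in 3.3% of all genes. The E-box-like form TCACNTGA was found in Thrsp and in 1 of 3 windows of Insig2, and in 4.78% of all genes. A match is a string of letters and not a measured binding site, and genes with several windows had more chances of a match. Shown are the 170 bases before the start, with matches to any of the 4 motifs in capitals (ATTGG is CCAAT read on the other strand). Chosen were Hmgcs1 and Mvd for the mevalonate stage, Sc5d for the late sterol enzymes without overlap between groups, and Fasn and Acly for the fatty acid genes that lay on opposite sides of 0.
Hmgcs1 (chr13:119690181-119690350, plus strand): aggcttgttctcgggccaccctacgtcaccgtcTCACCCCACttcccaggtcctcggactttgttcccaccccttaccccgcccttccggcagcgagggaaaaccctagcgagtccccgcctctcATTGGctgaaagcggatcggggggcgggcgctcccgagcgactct
Mvd (chr8:122443423-122443592, minus strand): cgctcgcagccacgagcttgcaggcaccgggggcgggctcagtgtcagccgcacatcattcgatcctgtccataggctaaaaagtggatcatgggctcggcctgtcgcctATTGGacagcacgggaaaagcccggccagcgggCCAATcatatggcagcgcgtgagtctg
Sc5d (chr9:42264301-42264470, minus strand): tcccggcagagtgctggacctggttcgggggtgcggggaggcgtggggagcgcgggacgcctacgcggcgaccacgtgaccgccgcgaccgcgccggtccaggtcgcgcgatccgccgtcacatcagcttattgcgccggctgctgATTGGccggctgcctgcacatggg
Fasn (chr11:120824548-120824717, minus strand): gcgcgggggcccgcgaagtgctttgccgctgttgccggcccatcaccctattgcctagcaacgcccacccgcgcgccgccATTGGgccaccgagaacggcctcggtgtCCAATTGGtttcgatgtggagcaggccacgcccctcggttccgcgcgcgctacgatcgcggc
Acly (chr11:100528001-100528170, minus strand): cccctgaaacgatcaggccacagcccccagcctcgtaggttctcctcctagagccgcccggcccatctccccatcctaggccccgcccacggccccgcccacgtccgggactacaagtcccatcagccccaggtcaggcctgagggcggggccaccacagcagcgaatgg
Hmgcs1 holds the sterol element 137 bases before its start and a CCAAT box 45 bases before it. Sc5d holds a single CCAAT box 24 bases before the start. In Fasn, 2 of the 3 CCAAT matches overlap on opposite strands. Acly holds no match in the stretch shown, and its 1 CCAAT match lies after the start.

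The 5 regulators lay nearest to 0 as a group. Their log2 fold changes had a median of -0.02 and a range of -0.34 to 0.04, none with an unadjusted p under 0.05. Srebf2, which encodes SREBP2, had 244, 291 and 241 CPM in the Dnmt3a+/+ tumors and 291, 283, 252 and 237 CPM in the Dnmt3a+/Δ tumors. By edgeR, Srebf2 differed by 0.04 ± 0.15 (SE) on the log2 scale (adjusted p = 0.956). All 7 tumors lay within 1.23-fold of each other, the narrowest span of any member. Srebf1, which encodes SREBP1, had 124, 156 and 172 CPM in the Dnmt3a+/+ tumors and 149.9, 151, 146 and 149.8 CPM in the Dnmt3a+/Δ tumors. This was a log2 fold change of -0.01 ± 0.15 (SE, adjusted p = 0.988, edgeR). The 4 Dnmt3a+/Δ tumors were close together, between the extremes of the Dnmt3a+/+ tumors. RNA of the SREBP genes does not report how much of the protein is cleaved and active.

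The Insig genes hold SREBPs back, and Insig1 is itself an SREBP target. Insig1 had 81.2, 126 and 89.0 CPM in the Dnmt3a+/+ tumors and 67.6, 102, 76.3 and 83.9 CPM in the Dnmt3a+/Δ tumors. The log2 fold change of Insig1 was -0.27 ± 0.21 (SE, adjusted p = 0.667 in edgeR's quasi-likelihood test). Its lowest tumor was Dnmt3a+/Δ replicate 1, its highest was Dnmt3a+/+ replicate 2, and the groups overlapped. Without Dnmt3a+/+ replicate 2 its log2 fold change was -0.052. Insig2, the form less dependent on sterols, had 63.8, 48.2 and 37.4 CPM in the Dnmt3a+/+ tumors and 51.2, 37.3, 36.9 and 31.9 CPM in the Dnmt3a+/Δ tumors. In edgeR's quasi-likelihood test its log2 fold change was -0.34 ± 0.23 (SE, adjusted p = 0.609). The tumors of BMT18 were high and those of BMT8 low in each graft group except for Dnmt3a+/Δ replicate 2. Without Dnmt3a+/+ replicate 1 the log2 fold change of Insig2 was -0.13. Scap, the escort of SREBPs, was at 70.1 to 84.1 CPM in the Dnmt3a+/+ tumors and at 65.0 to 103 CPM in the Dnmt3a+/Δ tumors, a log2 fold change of -0.02 ± 0.19 (SE).

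Fatty acid genes were above 0 more often than below. Of 8 members, 6 had log2 fold changes above 0 (median 0.34, range -0.35 to 3.60). With scaling by library size only 7 of 8 were above 0, but the median of all genes was then 0.21. Scd2, 1 of those 7, was at 0.18 on that scale. Without Thrsp, which passed the filter through Dnmt3a+/Δ tumors only, 5 of 7 were above 0 with a median of 0.24. Fasn, the fatty acid synthase that builds palmitate (chr11:120805846-120824547, minus strand), had 116, 141 and 209 CPM in the Dnmt3a+/+ tumors and 198, 326, 207 and 258 CPM in the Dnmt3a+/Δ tumors. Fasn had a log2 fold change of 0.67 ± 0.27 (SE, unadjusted p = 0.0375, adjusted p = 0.433, edgeR). Dnmt3a+/Δ replicate 2 was the highest tumor, and Dnmt3a+/+ replicate 3 lay above Dnmt3a+/Δ replicates 1 and 3, so the groups overlapped. The difference of mean log2 CPM was 0.99 in BMT18 and 0.14 in BMT8. Without Dnmt3a+/Δ replicate 2, the log2 fold change of Fasn was 0.53 (unadjusted p = 0.0775).

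Elovl6, which lengthens palmitate to stearate (chr3:129532355-129638495, plus strand), had 41.1, 34.0 and 43.3 CPM in the Dnmt3a+/+ tumors and 51.9, 59.1, 46.1 and 56.2 CPM in the Dnmt3a+/Δ tumors. By edgeR, Elovl6 differed by 0.44 ± 0.15 (SE) on the log2 scale (unadjusted p = 0.0205, adjusted p = 0.406). It was the one member with every Dnmt3a+/Δ tumor above every Dnmt3a+/+ tumor, the nearest pair being 46.1 CPM and 43.3 CPM. Its difference of mean log2 CPM was 0.57 in BMT18 and 0.23 in BMT8, and its log2 fold change was 0.41 without Dnmt3a+/Δ replicate 2 (unadjusted p = 0.0375).

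Acly and Acaca supply the synthase, Acly by splitting citrate to acetyl-CoA and Acaca by carboxylating it to malonyl-CoA. Acly had 227, 340.4 and 192 CPM in the Dnmt3a+/+ tumors and 236, 199, 205 and 153 CPM in the Dnmt3a+/Δ tumors. This was a log2 fold change of -0.35 ± 0.24 (SE, adjusted p = 0.609, edgeR). Dnmt3a+/+ replicate 2 was far above the other 6 tumors, and Dnmt3a+/Δ replicate 4 was the lowest. Without Dnmt3a+/+ replicate 2 the log2 fold change of Acly was -0.085. Acaca was at 57.6 to 63.9 CPM in the Dnmt3a+/+ tumors and at 58.7 to 89.9 CPM in the Dnmt3a+/Δ tumors, a log2 fold change of 0.24 ± 0.18 (SE, and 0.13 without Dnmt3a+/Δ replicate 2), with both high values in BMT18. Me1, a source of NADPH for synthesis, ranged 4.07-fold over the tumors with no order by graft (log2 fold change 0.12 ± 0.45 SE).

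Stearoyl-CoA desaturases put the first double bond into stearate. Scd1 and Scd2 lie near each other on chromosome 19 (chr19:44394455-44407879 and chr19:44293674-44306864), with Scd4 between them and Scd3 close by. How reads shared between such close copies were divided rests on the counting program. Scd3, which is not a member, was at 46.2 CPM in Dnmt3a+/Δ replicate 1 and at 0.489 to 12.1 CPM in the other tumors. Scd2 was the most abundant member per kilobase of exon (180 CPM per kb, mean of 7 tumors), against 22.6 CPM per kb for Scd1. Scd2 had 790.3, 1192 and 997 CPM in the Dnmt3a+/+ tumors and 989, 982, 1007 and 923 CPM in the Dnmt3a+/Δ tumors. The log2 fold change of Scd2 was -0.03 ± 0.19 (SE, adjusted p = 0.977 in edgeR's quasi-likelihood test). The Dnmt3a+/+ tumors alone spanned its whole range. Scd1 had 102, 76.4 and 48.4 CPM in the Dnmt3a+/+ tumors and 217, 214, 56.8 and 59.3 CPM in the Dnmt3a+/Δ tumors. In edgeR's quasi-likelihood test its log2 fold change was 0.86 ± 0.57 (SE, adjusted p = 0.6). Both high tumors, Dnmt3a+/Δ replicates 1 and 2, came from BMT18, and the pair from BMT8 lay within the range of the Dnmt3a+/+ tumors, with differences of 1.29 in BMT18 and 0.26 in BMT8 on the log2 scale. With experiment in the fit the log2 fold change of Scd1 was 0.86 (edgeR, unadjusted p = 0.00959, adjusted p = 0.263), and with BMT18 alone it was 1.29 (unadjusted p = 0.003, adjusted p = 0.492). Without Dnmt3a+/Δ replicate 2 it was 0.57 (unadjusted p = 0.345). The squamous and sebaceous marker sums of those high tumors were 19120 CPM and 230.1 CPM, the highest and the lowest of the series. Krt14, Krt5 and Krt6a (7171, 5963 and 5096 CPM) made up most of the former. Of the same list, Krt79 and Elovl3 were highest in Dnmt3a+/Δ replicate 1 (91.5 and 20.2 CPM) and at 0.265 and 0.0408 CPM in replicate 2. Awat2 was highest in Dnmt3a+/+ replicate 1 (1.16 CPM). The part of such glands in Scd1 was not tested.

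Thrsp, a nuclear protein long used as a marker of active lipogenesis (chr7:97412938-97417730, minus strand), had 0.242, 0.203 and 0.0306 CPM in the Dnmt3a+/+ tumors and 0.225, 5.97, 0.894 and 0.892 CPM in the Dnmt3a+/Δ tumors. The counts behind these values were 9, 13 and 1 in the Dnmt3a+/+ tumors and 9, 293, 44 and 33 in the Dnmt3a+/Δ tumors. Thrsp had a log2 fold change of 3.60 ± 1.25 (SE, unadjusted p = 0.0214, adjusted p = 0.406, edgeR). Dnmt3a+/Δ replicate 1 was at the level of the Dnmt3a+/+ tumors, replicates 3 and 4 lay between, and replicate 2 was above all others. DESeq2 called the gene (adjusted p = 0.032) but not without Dnmt3a+/Δ replicate 2 (adjusted p = 0.476), when edgeR's filter removed it. At a mean of 0.552 CPM per kb it was also the least abundant member.

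**Figure D4:**
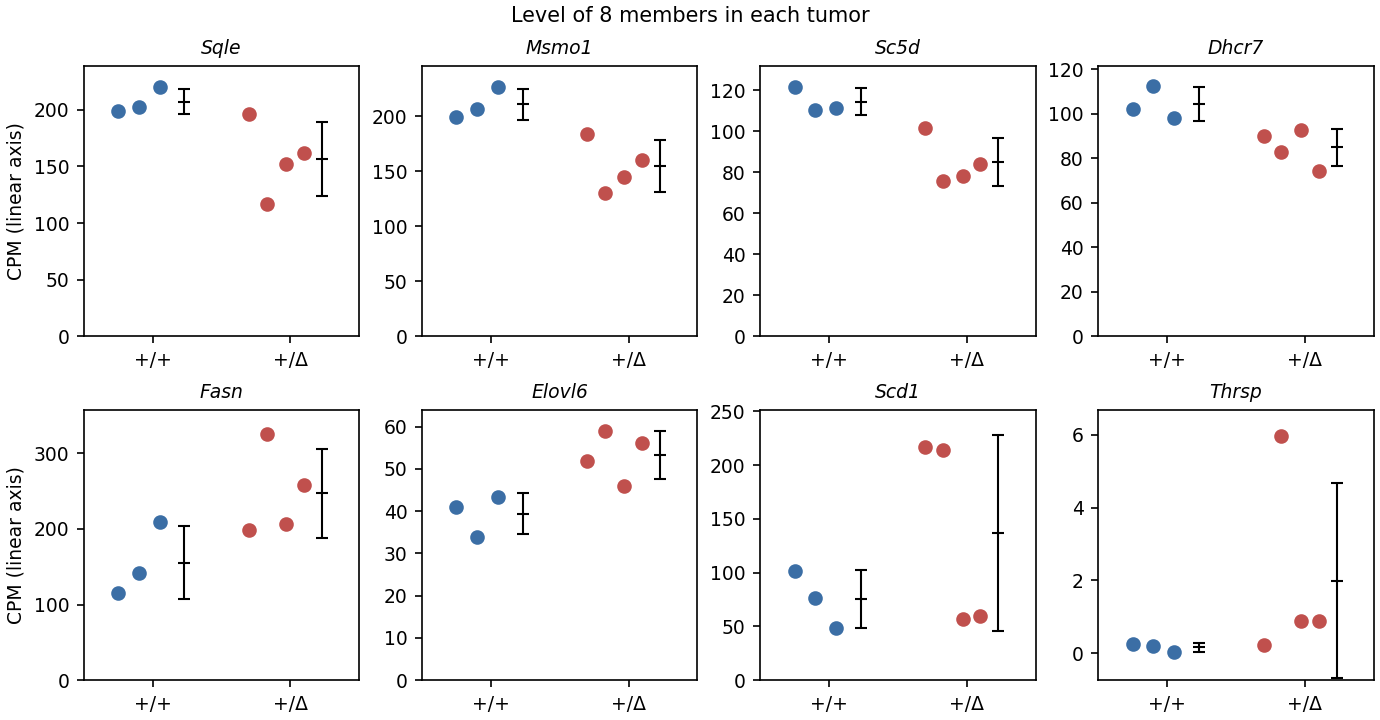
CPM (linear axes) of 4 late sterol enzymes and 4 fatty acid genes in each tumor, with the mean and SD of each group beside the points (3 Dnmt3a+/+ and 4 Dnmt3a+/Δ tumors). The groups are apart for Sqle, Msmo1, Sc5d, Dhcr7 and Elovl6 and overlap for Fasn, Scd1 and Thrsp.

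The branches were then set side by side within each tumor. The mean log2 CPM of the 17 sterol enzymes was 6.66, 6.82 and 6.96 with Dnmt3a+/+ and 6.70, 6.53, 6.58 and 6.69 with Dnmt3a+/Δ grafts, a difference of group means of -0.19, with 2 Dnmt3a+/Δ tumors above the lowest Dnmt3a+/+ tumor. The mean over the 8 fatty acid genes was 5.72, 5.62 and 5.49 with Dnmt3a+/+ and 6.14, 6.64, 5.95 and 5.94 with Dnmt3a+/Δ grafts, a difference of 0.56 without overlap. Thrsp weighs on this mean although it had the fewest counts and passed the filter through Dnmt3a+/Δ tumors only. Over the other 7 fatty acid genes the difference was 0.26.

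The balance, fatty acid minus sterol, was therefore taken first without Thrsp. It was 0.13, -0.11 and -0.16 in the Dnmt3a+/+ tumors and 0.59, 0.69, 0.23 and 0.11 in the Dnmt3a+/Δ tumors, a difference of 0.45, which was 0.36 without Dnmt3a+/Δ replicate 2. The groups overlapped over all 7 tumors, where Dnmt3a+/Δ replicate 4 of BMT8 lay below Dnmt3a+/+ replicate 1 of BMT18. Within each experiment the lowest Dnmt3a+/Δ value exceeded the highest Dnmt3a+/+ value. The group means differed by 0.63 in BMT18 and by 0.33 in BMT8, which has 1 Dnmt3a+/+ tumor. In BMT8 the mean over the fatty acid genes without Thrsp was level, at 6.80 with Dnmt3a+/+ and 6.81 and 6.80 with Dnmt3a+/Δ grafts. The difference there lay in the sterol mean, at 6.96 with Dnmt3a+/+ and 6.58 and 6.69 with Dnmt3a+/Δ grafts. With Thrsp the balance was -0.94, -1.20 and -1.48 in the Dnmt3a+/+ tumors and -0.56, 0.11, -0.63 and -0.75 in the Dnmt3a+/Δ tumors. The group means were then -1.21 ± 0.27 (SD, n = 3) and -0.46 ± 0.39 (SD, n = 4), a difference of 0.75 (0.56 without Dnmt3a+/Δ replicate 2), and the lack of overlap on this scale rests on Thrsp. No p-value is given for this score, because its members were chosen with results of these data known. Scaling between tumors cancels in the balance, which was 0.45 without Thrsp and 0.74 with it when scaled by library size only.

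**Figure D5:**
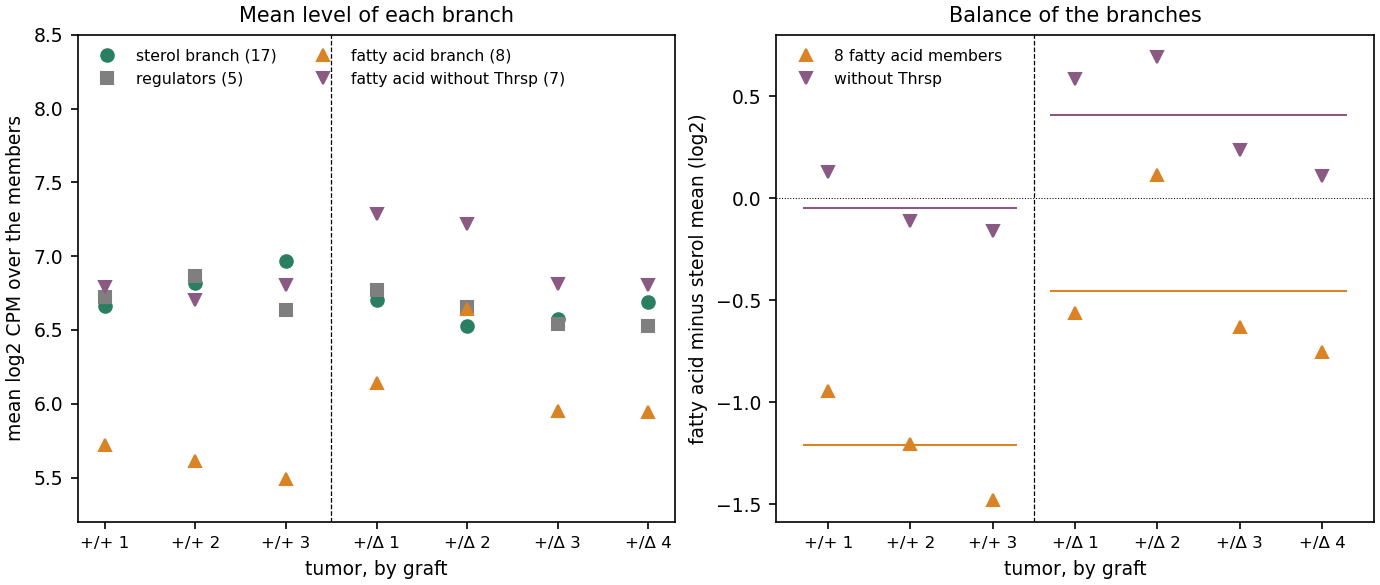
Left, mean log2 CPM of the sterol branch, the regulators and the fatty acid branch, with and without Thrsp, in each tumor; right, the fatty acid minus sterol balance in each tumor with group means as lines. With all 8 fatty acid genes the balance is higher in every Dnmt3a+/Δ tumor than in any Dnmt3a+/+ tumor, and without Thrsp the groups overlap across experiments.

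The branches also differed in how much they varied over the 7 tumors, any difference between grafts included. The highest tumor exceeded the lowest by a median of 1.81-fold (range 1.29 to 2.28) among the sterol enzymes and 1.58-fold among the regulators. Among the fatty acid genes the median was 2.52-fold (range 1.51 to 195), and for all genes tested it was 2.28-fold. The value of 195 is that of Thrsp. The other fatty acid genes lay on both sides of 2.28. Scd2, Acaca, Elovl6 and Acly were at 1.51, 1.56, 1.74 and 2.23-fold, and Fasn, Me1 and Scd1 at 2.82, 4.07 and 4.49-fold. Dnmt3a+/+ replicate 3 was the highest tumor for 9 of the 17 sterol enzymes and Dnmt3a+/Δ replicate 2 the lowest for 6. Without Dnmt3a+/+ replicate 3 the sterol median log2 fold change was -0.19, and 6 of the 17 were above 0. In the fit of all 7 tumors 2 of the 17 were. Of the 8 fatty acid genes, 4 peaked in Dnmt3a+/Δ replicate 2, 2 in Dnmt3a+/Δ replicate 1 and 2 in Dnmt3a+/+ replicate 2.

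Genes of the same pathways that are not members were taken whole from pathway lists. Of 64, 62 were tested, with a median log2 fold change of -0.02. At an unadjusted p under 0.05 in edgeR there were 3 higher and 4 lower, counts near the shares of all genes tested (5.83% and 5.2%). The groups were apart for 2 of the 62 above and 4 below, against 6.12% and 6.32% of all genes. The further sterol synthesis genes numbered 5, none with such a p (median -0.14).

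Genes of sterol efflux were on both sides. Abca1, which loads cholesterol onto apolipoproteins, had 10.0, 9.51 and 7.55 CPM in the Dnmt3a+/+ tumors and 21.03, 42.0, 16.9 and 13.2 CPM in the Dnmt3a+/Δ tumors. By edgeR, Abca1 differed by 1.37 ± 0.41 (SE) on the log2 scale (unadjusted p = 0.0107, adjusted p = 0.378). Abcg5, part of the pump that returns sterols to the gut lumen, had 19.2, 22.1 and 13.1 CPM in the Dnmt3a+/+ tumors and 11.1, 3.97, 6.62 and 5.70 CPM in the Dnmt3a+/Δ tumors. This was a log2 fold change of -1.40 ± 0.37 (SE, unadjusted p = 0.00585, adjusted p = 0.361, edgeR). Abcg5 was the one gene of these lists that DESeq2 called (adjusted p = 0.034), and without Dnmt3a+/Δ replicate 2 its adjusted p was 0.0892. Neither pair of groups overlapped, Abca1 being higher and Abcg5 lower in every Dnmt3a+/Δ tumor, and Dnmt3a+/Δ replicate 2 was the extreme tumor in both. Abcg8, the partner of Abcg5, was also lower in every Dnmt3a+/Δ tumor (2.98 to 5.24 CPM, against 5.41 to 7.71 CPM). The spans of Abcg5 (chr17:84658234-84683011, minus strand) and Abcg8 (chr17:84676302-84700333, plus strand) overlap. Shared exon bases were looked for in members only, so reads common to both genes were not examined.

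Further fatty acid genes numbered 21, of which 20 were tested (median 0.10). At an unadjusted p under 0.05, 2 were higher and 2 lower, against 5.83% and 5.2% of all genes tested. Fads1, a desaturase of polyunsaturated fatty acids, had 24.9, 17.2 and 37.2 CPM in the Dnmt3a+/+ tumors and 39.2, 135, 48.6 and 40.9 CPM in the Dnmt3a+/Δ tumors. The log2 fold change of Fads1 was 1.32 ± 0.51 (SE, unadjusted p = 0.0333, adjusted p = 0.422 in edgeR's quasi-likelihood test). Hacd4, a dehydratase of fatty acid elongation, had 7.12, 3.86 and 5.23 CPM in the Dnmt3a+/+ tumors and 11.1, 20.4, 6.25 and 8.03 CPM in the Dnmt3a+/Δ tumors. In edgeR's quasi-likelihood test its log2 fold change was 1.09 ± 0.45 (SE, unadjusted p = 0.0451, adjusted p = 0.444). Dnmt3a+/Δ replicate 2 was the highest tumor for both, and only Fads1 was without overlap. Without that tumor the log2 fold changes were 0.73 for Fads1 (edgeR, unadjusted p = 0.0444) and 0.67 for Hacd4 (unadjusted p = 0.0885). Acss2, which makes acetyl-CoA from acetate and so feeds both branches, had 62.1, 85.5 and 43.5 CPM in the Dnmt3a+/+ tumors and 40.7, 34.8, 37.9 and 19.8 CPM in the Dnmt3a+/Δ tumors. Acss2 had a log2 fold change of -0.94 ± 0.30 (SE, unadjusted p = 0.0154, adjusted p = 0.392, edgeR). Elovl7, an elongase, had 114, 129 and 118 CPM in the Dnmt3a+/+ tumors and 91.6, 85.5, 97.1 and 99.3 CPM in the Dnmt3a+/Δ tumors. By edgeR, Elovl7 differed by -0.37 ± 0.13 (SE) on the log2 scale (unadjusted p = 0.0212, adjusted p = 0.406). For both of these every Dnmt3a+/Δ tumor was below every Dnmt3a+/+ tumor.

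Beside these values stand those of the cells that make up the tumors. Of 12 colon epithelium markers, 11 had log2 fold changes below 0 (median -0.57), and their summed CPM was 19580 to 37700 with Dnmt3a+/+ and 10850 to 23980 with Dnmt3a+/Δ grafts, lowest in Dnmt3a+/Δ replicate 2. The sum was highest in Dnmt3a+/+ replicate 3, the tumor that was highest for 9 of the 17 sterol enzymes. All 8 fibroblast markers (median 1.09) and all 7 endothelial markers (median 1.72) were above 0, and 6 of 7 tested macrophage markers were (median 0.83, sums of 48.7 to 104 CPM with Dnmt3a+/+ and 52.7 to 206 CPM with Dnmt3a+/Δ grafts). Without Dnmt3a+/Δ replicate 2 the medians were 0.22 for the fibroblast, 1.17 for the endothelial, 0.082 for the macrophage and -0.44 for the epithelium markers. In whole tumors, fewer cells of a type and less RNA per cell cannot be told apart, and the part of these shifts in the member values was not tested.

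Counts of some members may hold reads of a neighbor. In the GENCODE M21 annotation 12 members share exon bases with another gene, and 4 of the 13 partners had more than 1000 counts. They were Ctsb for Fdft1 (774 bases, 161463 counts over the 7 tumors against 62942 for Fdft1), Akap9 for Cyp51 (166 bases) and Rai1 for Srebf1 (109 bases), each on the opposite strand, and Vps51 for Tm7sf2 on the same strand (532 bases, 13535 counts against 12336). Whether strand was used in counting is not given in the sources used here, so the values of these members are uncertain to that extent. Of the members without group overlap, Elovl6 alone shares bases, 34 of them.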

How the data were processed

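Polyadenylated RNA of 7 whole colon tumors was sequenced from directional libraries. Reads were trimmed (Trimmomatic) and aligned to mouse build mm10 (STAR) by the authors, who deposited estimated counts per gene from RSEM, as whole numbers without normalization; the annotation release and use of strand are not given in the sources used here. Genes without a symbol in GENCODE M21 (GRCm38) held 0.104% of counts. No columns were left unused, and no pair of tumors was identical (closest Spearman correlation 0.984).

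Counts were scaled by TMM, filtered with filterByExpr and compared between grafts with edgeR 4.0.16's quasi-likelihood test in R 4.3.3, without covariates, with Benjamini-Hochberg adjustment. DESeq2 1.42.0, the tool the study names, was an alternative. Log2 CPM used a prior count of 2, and CPM per kb the merged exon length. Both tools' scripts were tested on simulated data first. The members, lists and tests were chosen with earlier results of these data known. Given tumor by tumor were members with an unadjusted p under 0.05 or groups apart, the 3 most abundant per branch, the Srebf, Insig and Scd pairs, and of the other lists the 3 lowest unadjusted p in each direction, with some genes not reported here. Abcg8, Scd3, Pmvk, Tm7sf2 and other members given by single values were chosen after their values were seen. Alternatives were other scalings, no filter, the experiment or replicate number in the fit, BMT18 alone and each tumor left out. Thrsp, with 1 to 293 counts per tumor, is the member whose values counting error limits most.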

Additional observations from a re-analysis of the deposited data

Results flagged for a closer look

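In the group of 4 Dnmt3a+/Δ tumors, 40 values (36 genes and 4 branch means) were examined for a tumor far from the others. Of these values 4 held such a tumor, and chance gives about 1 in 20, or 2 of 40. The limit used was for a group of 4, so the Dnmt3a+/+ tumors could not yield one, and the grafts are not compared here. Lss was at 61.3 CPM in Dnmt3a+/Δ replicate 1, with the next tumor of the group at 46.4 CPM. Scap was at 103.0 CPM in the same tumor, with the next at 69.6 CPM. Thrsp was at 5.97 CPM in Dnmt3a+/Δ replicate 2, with the next at 0.894 CPM, and Fads1 was at 134.9 CPM in that tumor, with the next at 48.6 CPM.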

How the results depend on the processing

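Calls: edgeR called 0 genes in all 14 fits run, also by adjusted p alone (a count added after seeing the data for all but the fit reported), and DESeq2 called 300; DESeq2 without each tumor in turn, added after seeing the data, called 63 (without Dnmt3a+/+ replicate 2) to 697 (without Dnmt3a+/Δ replicate 1). Members with an unadjusted p under 0.05 were 5, were 3 with library size only and 3 in BMT18 alone, and ranged from 1 (without Dnmt3a+/+ replicate 2) to 6 (without Dnmt3a+/Δ replicate 1) when single tumors were left out. The sterol median was -0.17, -0.27 to -0.084 without single tumors, and 0.057 with library size only, below the 0.21 of all genes on that scale. The fatty acid median was 0.24 without Thrsp and 0.31 to 0.56 under the other alternatives. The balance was 0.56 to 0.88 with Thrsp, and from 0.33 (BMT8 alone) to 0.63 (BMT18 alone) without it. The settings without Thrsp alone and BMT8 alone were added after seeing the data. With library size only, signs turned for 10 of 30 members, among those given tumor by tumor Idi1 (0.085), Cyp51 (0.103), Srebf1 (0.21) and Scd2 (0.18). In BMT18 alone they turned for 8 of 29, among them Cyp51 (0.045), Srebf1 (0.12) and Scd2 (0.0042), and with relative log expression size factors for Srebf1 (0.0013). Leaving out single tumors gave -0.25 to 0.048 for Cyp51, -0.14 to 0.092 for Srebf1, -0.011 to 0.13 for Srebf2 and -0.17 to 0.12 for Scd2. DESeq2 put Thrsp (3.65) and Abcg5 (-1.39) past the threshold. Of 318 values of named genes under alternatives, 297 kept direction and side of the threshold, 19 turned sign and 2 became calls. The causes were not tested. Thrsp gave no value in fits whose filter removed it.

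Same-numbered tumors deviated together only in part (correlations 0.57, 0.071 and -0.038), so the numbers do not pair them. With the replicate number as a block, 0 genes were called, 4 members had an unadjusted p under 0.05, the sterol median was -0.23, the fatty acid median 0.35, and Scd2 turned sign (0.0196).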
